A study of Canis lupus familiaris with 8 samples.

Results

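The 38 genes described here are VEGFA, the genes of the HIF oxygen-sensing pathway and its known targets, and the genes of glucose uptake and glycolysis. They were chosen by name from a list, and 38 of 38 were among the 37952 genes of the deposited count table. All 38 also passed the filter on low counts, which kept 14571 genes. The samples were 8 wells of the canine kidney epithelial line MDCK GII, cultured as monolayers on a collagen-coated silicone membrane in low-glucose medium with serum. In 4 wells vacuum drew the membrane out to an equi-biaxial strain of 18%, held for 2 hours (stretch replicates 1 to 4). The other 4 wells were labelled controls (control replicates 1 to 4). The labels describe the wells of a group as technical replicates of 1 cell line spread over several devices, so p-values measure the spread between wells.

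VEGFA encodes a secreted growth factor that drives growth and permeability of blood vessels, and kidney epithelium is one of its sources. Hypoxia-inducible factor (HIF) is a pair of an oxygen-labile alpha subunit, encoded by HIF1A or EPAS1, and a stable partner encoded by ARNT. When oxygen is present, the EGLN prolyl hydroxylases mark the alpha subunit and the VHL ubiquitin ligase removes it. When oxygen is low, the pair induces VEGFA together with glucose transporters, glycolytic enzymes and mitophagy genes. VEGFA can also be induced by growth-factor and stress signalling without low oxygen, so the comparison asks whether VEGFA moved with or apart from the other HIF targets.

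Libraries held between 27047358 and 32478887 counts. All 8 epithelial markers examined, CDH1 and EPCAM among them, were tested genes, and they summed to 5110 to 5641 CPM (reads scaled to a common library total) in controls and 5361 to 5521 CPM under stretch. The summed fibroblast markers lay at 1.80 to 4.23 CPM in controls and 2.89 to 3.91 CPM under stretch, with COL1A2, COL3A1 and DCN at 0 counts in every well. The leukocyte markers PTPRC, CD3E and ITGAM were also at 0, and the summed leukocyte list lay at 0.496 to 0.698 CPM in controls and 0.413 to 0.985 CPM under stretch. The summed endothelial markers lay at 0.501 to 0.713 CPM and 0.523 to 0.830 CPM. In bulk RNA, a change in RNA per cell and a change in the share of cells that express a gene cannot be told apart.

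Levels of different genes were compared in TPM, a unit that divides counts by exon length. In control wells ENO1, the enolase of lower glycolysis, was the most abundant of the 38 at 1103 ± 56.7 TPM (SD, n = 4). PGAM1, LDHA, NDRG1, TPI1 and ALDOA followed, with means between 620 and 779 TPM. SLC2A1, the basal glucose transporter GLUT1, stood at 429 ± 72.3 TPM, while the related transporter SLC2A3 was at 1.19 ± 0.151 TPM. VEGFA was at 14.3 ± 2.94 TPM, near EGLN3 at 11.4 ± 1.07 TPM. CA9, a surface carbonic anhydrase often used as a hypoxia marker, was at 1.73 ± 0.25 TPM and had only 30 to 48 counts per well. CA12, its relative, was at 123 ± 24.9 TPM.

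**Figure D1:**
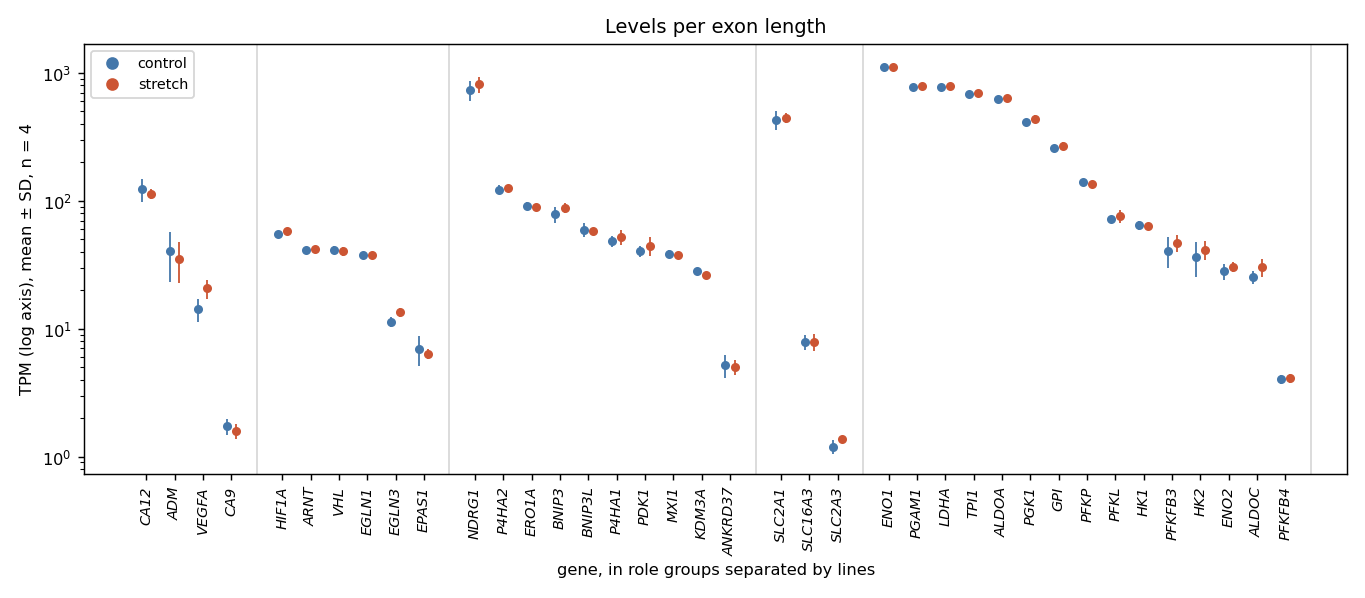
Level of each gene in TPM (log axis; points are means and bars SD over 4 wells), control in blue and stretch in orange, with role groups separated by lines. Glycolytic enzymes such as ENO1 (1103 TPM in control wells) lie far above VEGFA (14.3 TPM) and CA9 (1.73 TPM).

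Among paralogues, 1 form usually held most of the per-length level in control wells. ALDOA made up 96.0 ± 0.431% of the aldolase TPM and ENO1 97.3 ± 0.307% of the enolase TPM (SD, n = 4). HK1, the constitutive hexokinase, made up 64.5 ± 5.14% of the summed HK1 and HK2 TPM, and HK2, the inducible form, made up the rest. HIF1A made up 89.0 ± 1.98% of the TPM of the 3 HIF alpha genes and EPAS1 11.02 ± 1.99%. VEGFA was the third of 5 VEGF ligand genes at 13.5 ± 2.01% of their TPM, after VEGFB (56.3 ± 1.21%) and VEGFC (28.2 ± 1.45%). In stretch wells the VEGFA share was 18.2 ± 2.41%.

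VEGFA was the only one of the 38 genes to rise past the threshold with all 4 same-numbered pairs of wells in the fit. This call required the replicate number as a block, and without the block no member passed. Its read counts, scaled to CPM with TMM factors, were 17.8, 19.1, 27.4 and 20.2 CPM in control replicates 1 to 4. In stretch replicates 1 to 4 they were 24.6, 30.3, 36.2 and 30.6 CPM. Control replicate 3 was the highest control well and lay above stretch replicate 1, so the groups overlapped, but VEGFA was higher under stretch in 4 of 4 pairs. The means were 21.1 ± 4.29 and 30.4 ± 4.75 CPM (SD, n = 4 each).

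With the replicate block the log2 change of VEGFA was 0.53 ± 0.06 (SE), a 1.44-fold rise with a 95% interval from 0.39 to 0.67 on the log2 scale. Its adjusted p was 6.1e-04 with the block and 0.865 without it (edgeR quasi-likelihood test, Benjamini-Hochberg over all 14571 genes). Without the block the estimate was almost the same, 0.52 ± 0.15. The background was 102 genes of 14571, or 0.700%, called with the block (0.528% higher and 0.172% lower) and 0 without it. By p in the fit with the block, VEGFA ranked 7 of 14571. The gene lies on chromosome 12 (12398451 to 12413981, plus strand) and no annotated gene overlaps it. With a block of only 2 levels, replicates 1 and 2 against replicates 3 and 4, VEGFA also passed (adjusted p = 0.0305, edgeR), against a background of 0.398%.

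**Figure D2:**
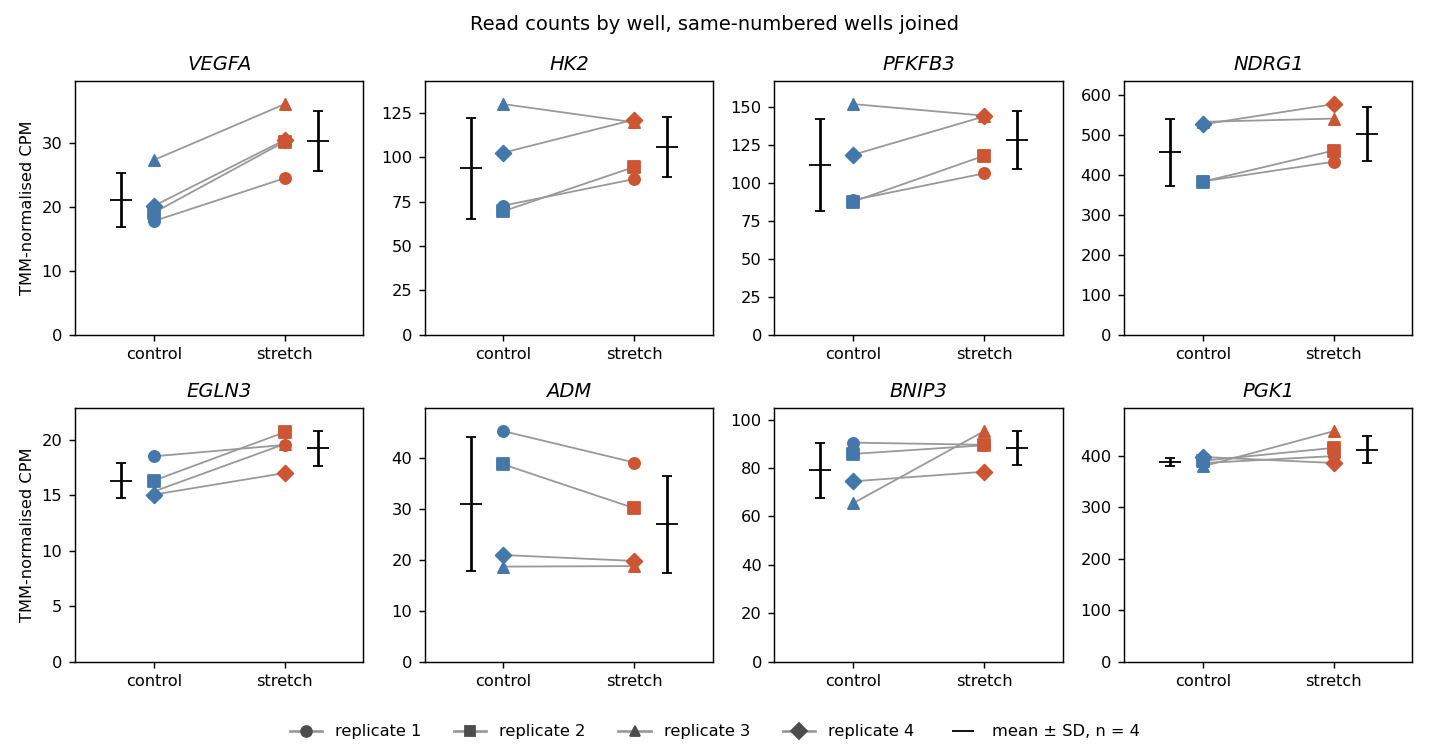
TMM-normalised CPM of 8 genes in each well (blue control, orange stretch; one marker shape per replicate number, same-numbered wells joined; black bars are mean ± SD, n = 4). VEGFA was higher under stretch in every pair, while HK2 and PFKFB3 were higher in replicates 1, 2 and 4 but not in replicate 3, and BNIP3 had its one large difference in replicate 3.

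The other 37 genes had a median log2 change of 0.02 with the block, beside -0.0022 over all tested genes. Their changes ran from -0.17 (ADM) to 0.24 (EGLN3), 23 of them above and 14 below 0. Of these 37, 0 passed in edgeR with or without the block and 0 in DESeq2, which called 0.275% of all genes. At an unadjusted p under 0.05, 1 had a difference without the block (EGLN3, higher). With the block, 5 higher and 1 lower did. Over all genes tested, 3.97% had such an unadjusted p without the block and 8.89% with it. For 31 of the 37 the upper end of the 95% interval with the block lay below 0.39, the lower end of the VEGFA interval. The remaining 6 were CA12, EGLN3, EPAS1, PDK1, SLC2A3 and ALDOC, whose intervals were wider or reached higher. These intervals are not adjusted for the number of genes, and the difference between VEGFA and each gene was not tested.

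**Figure D3:**
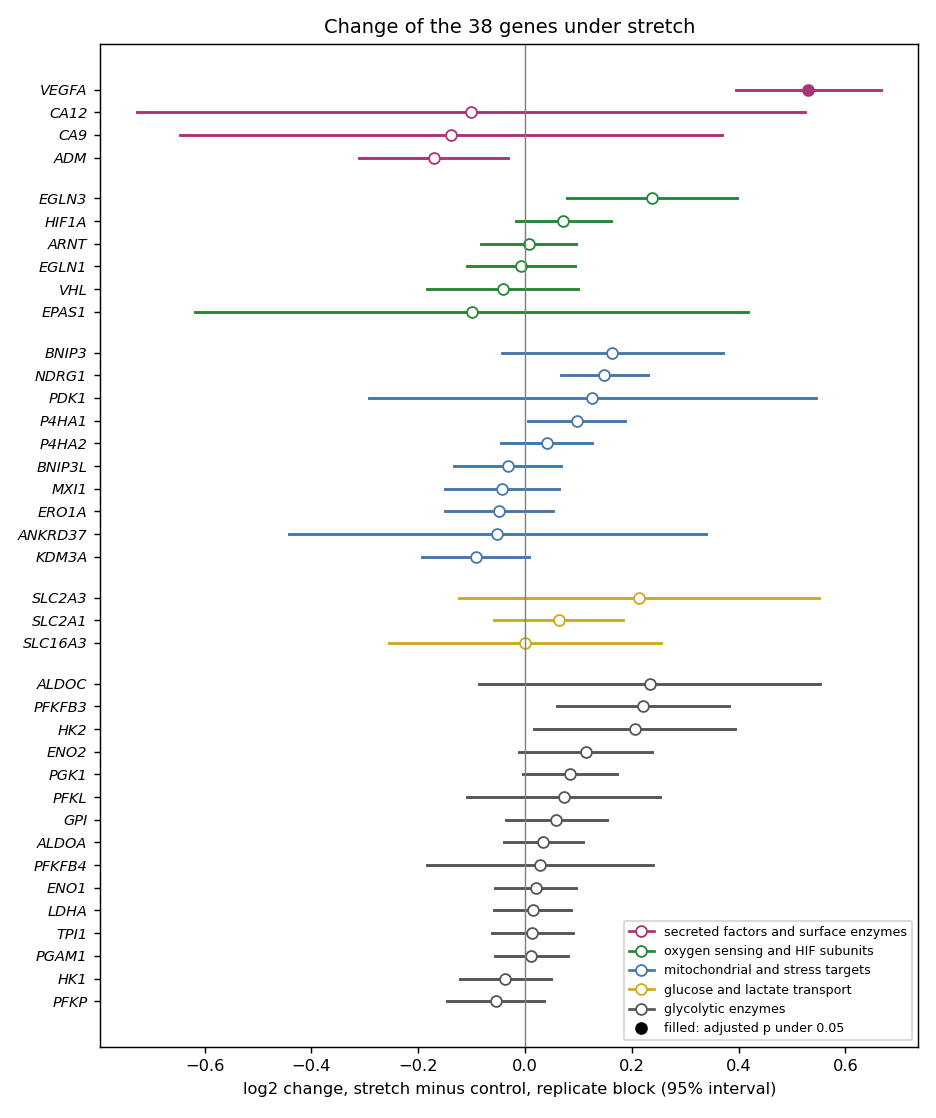
Log2 change of each of the 38 genes, stretch minus control, in the fit with the replicate block (circles; lines are 95% intervals; a filled circle marks an adjusted p under 0.05), grouped by role. VEGFA at 0.53 is the only filled circle, and most glycolytic enzymes have narrow intervals close to 0.

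The result for 3 of these genes depended on 1 pair. Without replicate 3 of both groups, the fit with the block called 4 members, all higher: VEGFA, PFKFB3, HK2 and NDRG1. The background of that fit was 1.27% of the genes tested. In it VEGFA had a log2 change of 0.58 (adjusted p = 2.3e-05, edgeR), PFKFB3 0.32 (adjusted p = 1.5e-04, edgeR), HK2 0.32 (adjusted p = 5.2e-04, edgeR) and NDRG1 0.19 (adjusted p = 0.0019, edgeR). With all pairs, the blocked values were 0.22 ± 0.07 for PFKFB3, 0.21 ± 0.08 for HK2 and 0.15 ± 0.04 for NDRG1 (adjusted p = 0.335, 0.505 and 0.105 by edgeR). These 3 genes were singled out after their values were seen.

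By role, the 3 other genes of secreted factors and surface enzymes all had values below 0 with the block, and none passed. CA12 had 214, 206, 302 and 208 CPM in control replicates 1 to 4 and 228, 229, 181 and 220 CPM in stretch replicates 1 to 4. Control replicate 3 was far above, and stretch replicate 3 below, the other wells. Its log2 change of -0.11 ± 0.13 without the block (adjusted p = 0.999, edgeR) turned to 0.04 without control replicate 3. CA12 lies on chromosome 30 (28311867 to 28365995). CA9 had 1.15 to 1.62 CPM in control wells and 1.03 to 1.44 CPM in stretch wells, and its 95% interval with the block ran from -0.65 to 0.37. ADM, the gene of the vasodilator peptide adrenomedullin, had 45.2, 38.7, 18.7 and 20.9 CPM in control wells and 39.1, 30.1, 18.8 and 19.8 CPM in stretch wells. Its groups overlapped fully, and its log2 change with the block was -0.17 ± 0.07 (adjusted p = 0.402, edgeR).

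The 6 genes of oxygen sensing and the HIF subunits had a median log2 change of -9.1e-04 with the block, and 0 passed. EGLN3, a prolyl hydroxylase gene that is itself a HIF target, had 18.5, 16.3, 15.3 and 15.1 CPM in control replicates and 19.5, 20.7, 19.6 and 17.0 CPM in stretch replicates. It was higher in 4 of 4 pairs, with 1 stretch well inside the control range. With the block EGLN3 had a log2 change of 0.24 ± 0.08, which did not pass (edgeR, adjusted p = 0.231; unadjusted p = 0.0058). EGLN3 lies on chromosome 8 (13031833 to 13059696, minus strand). Its share of the summed EGLN TPM was 13.4 ± 1.94% in control wells and 15.8 ± 0.983% in stretch wells (SD, n = 4). EGLN1, the main oxygen sensor, had an interval from -0.11 to 0.09.

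HIF1A had 114, 112, 122 and 109 CPM in control wells and 116, 115, 125 and 123 CPM in stretch wells. Its stretch wells were higher in 4 of 4 pairs, by a blocked log2 change of 0.07 ± 0.04 (adjusted p = 0.722, edgeR). HIF1A lies on chromosome 8 (36896640 to 36939279) and overlaps 1 gene on the opposite strand. ARNT and VHL had log2 changes of 0.01 and -0.04 with the block. EPAS1 had 25.6 CPM in control replicate 3 against 15.4 to 17.7 CPM in the other control wells, and its interval was correspondingly wide, from -0.62 to 0.42.

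The 10 mitochondrial and stress targets split evenly, 5 above and 5 below 0 with the block, and 0 passed. BNIP3, a receptor for mitophagy, had 90.5, 85.9, 65.5 and 74.5 CPM in control wells and 89.6, 89.4, 95.3 and 78.5 CPM in stretch wells. Replicate 3 had by far the largest difference of its 4 pairs, 0.54 on the log2 CPM scale. BNIP3 had a blocked log2 change of 0.16 ± 0.09 (adjusted p = 0.713, edgeR). KDM3A, a histone demethylase, had 107, 114, 101 and 108 CPM in control wells and 98.6, 96.4, 100.1 and 108 CPM in stretch wells. Its log2 change was -0.09 ± 0.05 with the block (adjusted p = 0.632, edgeR). An annotated gene on the other strand overlaps KDM3A. BNIP3 lies on chromosome 28 (40549677 to 40562589) and KDM3A on chromosome 17 (38971898 to 39027987).

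NDRG1, a stress-induced gene of the same group, had 383, 383, 532 and 526 CPM in control wells and 432, 460, 540 and 576 CPM in stretch wells. It was higher in 4 of 4 pairs, but the step from replicates 1 and 2 to replicates 3 and 4 was larger than the step from control to stretch. PDK1, the kinase that shuts off pyruvate dehydrogenase, had 73.1 CPM in control replicate 3 and 113.5 CPM in stretch replicate 3, its lowest and highest wells. P4HA1 and P4HA2, subunits of collagen prolyl hydroxylase, had log2 changes of 0.10 and 0.04 with the block. BNIP3L, MXI1 and ERO1A had changes between -0.05 and -0.03. ANKRD37 had 52 to 101 counts per well, and its interval ran from -0.44 to 0.34.

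Of the 3 transporters, 0 passed. SLC2A1 had 467, 450, 638 and 574 CPM in control wells and 482, 547, 588 and 593 CPM in stretch wells. The stretch wells lay wholly within the control range, and the log2 change with the block was 0.06 ± 0.05 (adjusted p = 0.855, edgeR). SLC2A3 had 2.79, 3.24, 2.78 and 2.39 CPM in control wells and 3.26, 3.29, 3.09 and 3.29 CPM in stretch wells, from 76 to 106 counts per well. It was higher in 4 of 4 pairs, with a blocked log2 change of 0.21 ± 0.16 (adjusted p = 0.811, edgeR). SLC16A3, the lactate exporter MCT4, had a log2 change of -2.0e-04 with the block and an interval from -0.25 to 0.25. SLC2A1 lies on chromosome 15 (532601 to 561334) and SLC2A3 on chromosome 27 (8709301 to 8801490), and each of the 3 transporters overlaps at least 1 gene on the opposite strand.

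The 15 glycolytic enzymes had a median log2 change of 0.03 with the block, 13 above and 2 below 0, and 0 passed. The most abundant enzymes were measured tightly. The log2 change with the block was 0.01 for LDHA, PGAM1 and TPI1, 0.02 for ENO1 and 0.03 for ALDOA, and these 5 intervals ran from -0.06 at the lowest to 0.11 at the highest. PGK1, the first step of the pathway that yields ATP, had 386, 391, 380 and 398 CPM in control wells and 400, 416, 448 and 386 CPM in stretch wells. It was higher in 3 of 4 pairs, by 0.08 ± 0.04 on the log2 scale with the block (adjusted p = 0.601, edgeR). ALDOC, the minor aldolase, had 23.1, 21.1, 18.9 and 25.03 CPM in control wells and 23.5, 26.0, 31.3 and 23.1 CPM in stretch wells. Its log2 change was 0.23 ± 0.13 with the block (adjusted p = 0.749, edgeR), and its lowest control well and highest stretch well were both replicate 3. PGK1 lies on chromosome X (60517684 to 60539186) and ALDOC on chromosome 9 (42750567 to 42754409).

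HK2 and PFKFB3 were the most variable enzymes. HK2, which commits glucose to the pathway, had 72.8, 69.6, 130.03 and 103 CPM in control wells and 87.8, 94.6, 120 and 121 CPM in stretch wells. PFKFB3, which makes the activator of phosphofructokinase, had 88.5, 87.5, 152 and 118 CPM in control wells and 106, 118, 144.1 and 143.5 CPM in stretch wells. In both genes control replicate 3 was the highest of all 8 wells. Within replicates 1 and 2 alone, HK2 had a log2 change of 0.36 (adjusted p = 0.0113, edgeR), PFKFB3 0.35 (adjusted p = 0.0125, edgeR) and VEGFA 0.57 (adjusted p = 0.0178, edgeR), against a background of 0.348% of genes called. Within replicates 3 and 4 alone, no member passed, against a background of 0.169%, and the log2 changes were 0.06 for HK2, 0.10 for PFKFB3 and 0.50 for VEGFA. A test of the difference between these divisions called 0 of 14571 genes (adjusted p = 0.795 for HK2, 0.893 for PFKFB3 and 0.991 for VEGFA, edgeR), with 5 of the 38 members and 5.72% of all genes at an unadjusted p under 0.05.

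Set side by side within each pair, VEGFA stood above nearly all of the 31 HIF targets and glycolytic genes, which leave out the oxygen-sensing group. EGLN3, a HIF target with the next largest blocked log2 change after VEGFA (0.24), is thereby not among the 31. In replicate 1 the difference between stretch and control was 0.46 for VEGFA on the log2 CPM scale, and the median of the 31 was 0.02. In replicate 2 these values were 0.66 and 0.09, and in replicate 4 they were 0.60 and 0.02. In each of these 3 pairs VEGFA had the highest value of the 38 genes. Replicate 3 differed, since VEGFA at 0.40 ranked 4 of 38 after ALDOC at 0.73, PDK1 at 0.63 and BNIP3 at 0.54. The median of the 31 in that pair was 0.0064. VEGFA exceeded the median of the 31 by 0.50 ± 0.09 on average (SD over 4 pairs), a value given as a description without a test.

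**Figure D4:**
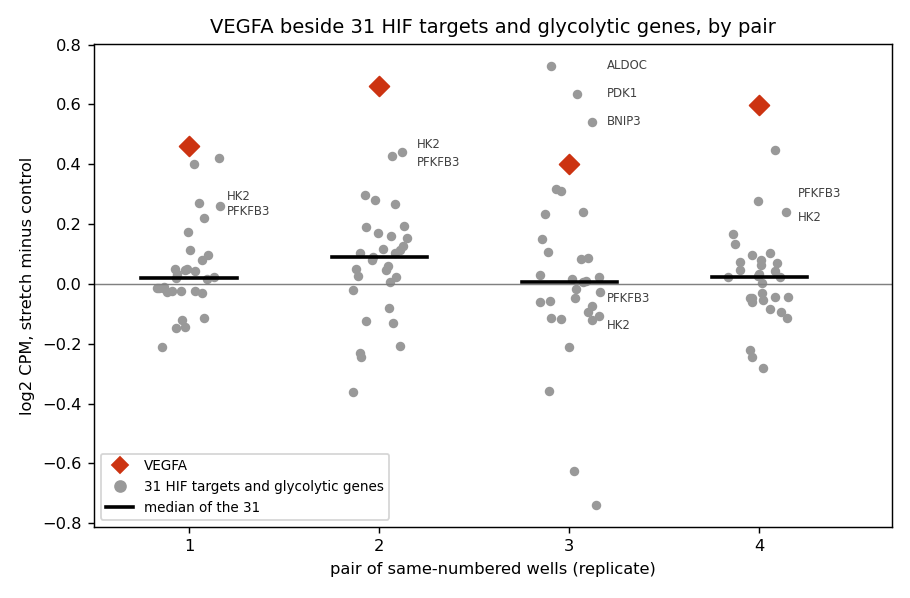
Log2 CPM difference, stretch minus control, in each pair of same-numbered wells for VEGFA (red diamonds) and for 31 HIF targets and glycolytic genes (grey points; black bars are their medians). VEGFA is the top gene in replicates 1, 2 and 4 and is exceeded by ALDOC, PDK1 and BNIP3 in replicate 3, where HK2 and PFKFB3 lie below 0. EGLN3 is not among the 31.

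Of the 38 genes, 7 were higher under stretch in all 4 pairs (VEGFA, EGLN3, HIF1A, NDRG1, P4HA1, SLC2A3 and ENO2) and 0 were lower in all 4. Over all tested genes, 8.45% were higher and 7.84% lower in all 4 pairs. No member had every stretch well above or below every control well, beside 1.30% and 1.24% of all tested genes.

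The mean log2 CPM difference between replicates 3 and 4 and replicates 1 and 2 was larger in size than that between stretch and control for 27 of the 38 genes. The same held for 67.9% of all tested genes, so the share among the 38 was near the background. The median sizes of these differences were 0.0736 and 0.0673 over the 38, beside 0.115 and 0.0588 over all tested genes. The wells of replicates 3 and 4 all lay above those of replicates 1 and 2 for 4 genes, HK2, PFKFB3, NDRG1 and SLC2A1, beside 10.4% of all tested genes. They all lay below for another 4 genes, ADM, P4HA1, ENO2 and BNIP3L, beside 9.93%. HK2 was 1.46-fold and PFKFB3 1.40-fold higher in replicates 3 and 4, and ADM differed by -0.96 on the log2 CPM scale. VEGFA was also higher in replicates 3 and 4, by 0.35 in control wells and 0.29 in stretch wells on the log2 CPM scale. The labels name no batch behind the replicate numbers, and these values carry no test.

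**Figure D5:**
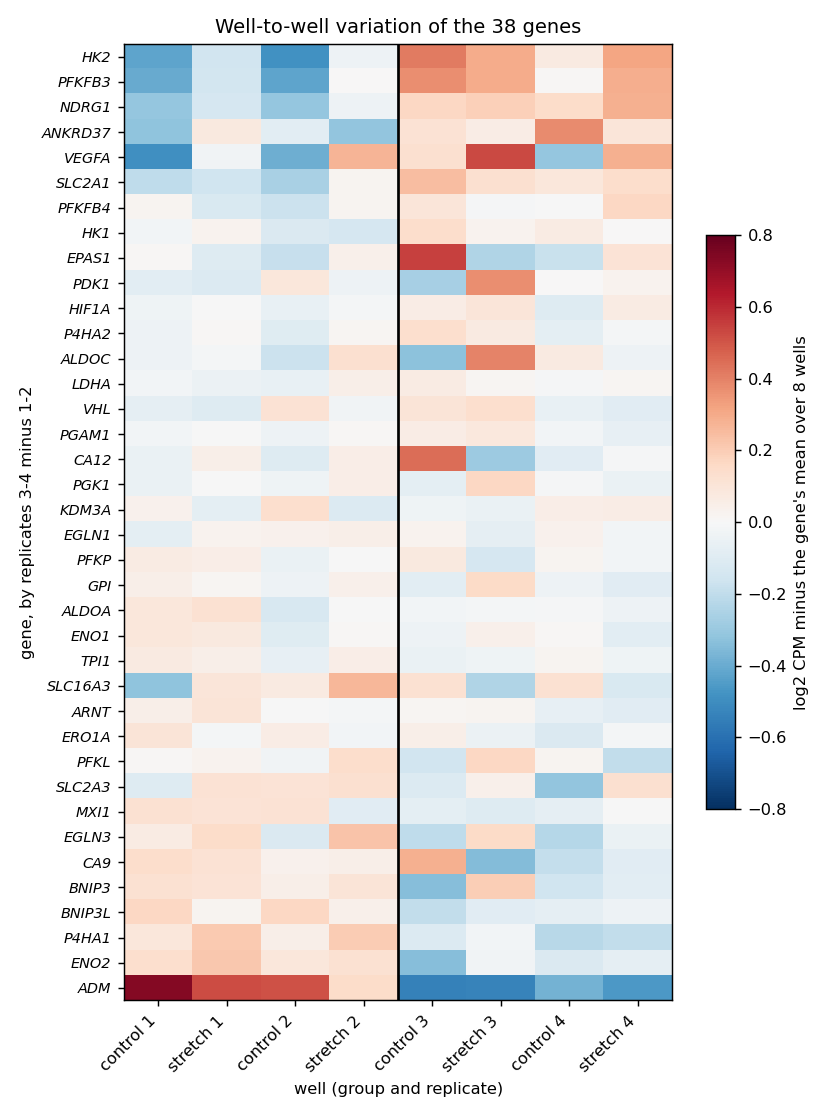
Log2 CPM of each gene minus its mean over the 8 wells, with wells ordered by replicate number and a line between replicates 2 and 3, and genes ordered by the difference between replicates 3 and 4 and replicates 1 and 2. HK2, PFKFB3, NDRG1 and SLC2A1 are higher, and ADM lower, in all 4 wells right of the line, and CA12 and EPAS1 are high in control replicate 3.

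Other genes of the pathway were read from 5 lists of 91 genes outside the 38. The VEGF family and receptors gave 0 calls among 9 tested genes, with a median log2 change of 0.02 with the block. VEGFD, a lymphatic growth factor, had 0.754 ± 0.122 CPM in control and 0.505 ± 0.112 CPM in stretch wells (SD, n = 4), and KDR, the main signalling receptor for VEGFA, had 1.40 ± 0.301 and 1.08 ± 0.369 CPM. Neither passed (edgeR with the block, adjusted p = 0.686 and 0.76). FLT1, another VEGFA receptor, had 127.5 ± 36.99 and 123.7 ± 11.01 CPM. Among 13 tested HIF pathway components, 0 passed. CITED2, which competes with HIF for its coactivators, had a blocked log2 change of -0.32 ± 0.07 (adjusted p = 0.0502, edgeR), lower in 4 of 4 pairs, and the coactivator gene CREBBP had -0.10 ± 0.05 (adjusted p = 0.525, edgeR).

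Of 24 further tested HIF targets, 1 passed with the block, 12 were above and 12 below 0, and the median log2 change was 0.03. Their changes with the block ran from -0.30 to 0.75, and the largest did not pass. At an unadjusted p under 0.05 (edgeR), 6 were higher and 2 lower with the block, beside 8.89% of all tested genes. Without the block, 4 were higher and 2 lower, beside 3.97%. Every stretch well lay below every control well for 2 of the 24, beside 1.24%, and above for 0, beside 1.30%. The gene that passed was LOX, lysyl oxidase, which crosslinks collagen and was named after its value was seen. It rose from 104 ± 13.1 to 121 ± 18.3 CPM (SD, n = 4), with a blocked log2 change of 0.22 ± 0.04 (adjusted p = 0.0182 by edgeR). Without any block its adjusted p was 0.999, and under 2 block levels 0.612, both by edgeR. EFNA1, an ephrin ligand, had a log2 change of -0.22 ± 0.07 in the fit with the block and was lower in 4 of 4 pairs (adjusted p = 0.168, edgeR).

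Among 12 further tested glycolysis genes, GAPDH and PKM included, and 21 of pyruvate oxidation and the citric acid cycle, 0 passed. The medians were 0.01 and -0.0058 on the log2 scale with the block. PDK4, which restrains pyruvate dehydrogenase, had a log2 change of -0.47 ± 0.15 from a level of 4.95 ± 1.13 CPM (edgeR with the block, adjusted p = 0.248), and the muscle enolase ENO3 had -0.30 ± 0.20 (adjusted p = 0.773, edgeR). PDHA1 and PDHB, subunits of pyruvate dehydrogenase, had log2 changes of -0.07 ± 0.04 and -0.06 ± 0.04 with the block (adjusted p = 0.653 and 0.789, edgeR). All 21 changes in the citric acid cycle list lay between -0.07 and 0.06.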

How the data were processed

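PolyA-selected, stranded RNA libraries of 8 wells were sequenced, per the labels. The authors deposited a table of raw exon counts by gene. FastQC 0.11.8, Trim Galore 0.6.5, STAR 2.7.3a, Subread and featureCounts are named in the submitters' processing notes. The genome build, strand setting and handling of multiply mapped reads are not given in the sources used here. The 11 of 38 genes that overlap a gene on the opposite strand and enzymes with near-identical copies elsewhere are therefore uncertain. So are EGLN1 and ALDOA, which each overlap 1 gene on the same strand. The summed exon length of each gene was another column, per the file headers. Coordinates are the table's: 37291 of its 37952 symbols had the same start and end in the dog assembly UU_Cfam_GSD_1.0. No sequence was used here.

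Totals were 27047358 to 32478887 counts per well. No wells of a group agreed within sampling noise (chi-square per degree of freedom 5.56 to 26.8). Genes were filtered with filterByExpr (minimum count 10, minimum total 15), scaled with TMM factors and tested by quasi-likelihood in edgeR 4.0.16 under R 4.3.3 (robust; two-sided; Benjamini-Hochberg over 14571 genes; threshold 0.05), without a block. SEs and 95% intervals follow from its F statistic. CPM used TMM factors, TPM used exon lengths, and log2 CPM a prior count of 2. Same-numbered wells deviated together from their group means (correlation 0.108 to 0.328 over the 4 numbers, mean 0.199), so values from a blocked fit stand beside it. The labels do not say whether same-numbered wells shared a device. Wells of different numbers were not correlated. These correlations therefore cannot tell a pairing by number from the difference between replicates 1 and 2 and replicates 3 and 4. Alternatives were DESeq2 1.42.0, limma-voom (limma 3.58.1), other size factors and filters, a block of 2 levels and leaving out wells or pairs. The interaction test was added after seeing the data. The script was tested on simulated data. Figures used matplotlib 3.10.9.

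The genes and lists were chosen with earlier results of these data known. Genes given well by well are VEGFA, members past the threshold with or without the block, and the 2 of each role group with the smallest unadjusted p without the block. In each outside list the 2 with the smallest such p are named. One gene that this rule names is not reported here. ADM, CA9, EPAS1, PDK1, HK2, PFKFB3, NDRG1, FLT1, LOX and other genes outside this rule were added after their values were seen.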

Additional observations from a re-analysis of the deposited data

Results flagged for a closer look

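In 7 of 76 groups of 4 wells, Dixon's criterion (critical value 0.829) set 1 well apart from its group. Chance gives about 1 in 20, or 3.8 groups. For CA12, control replicate 3 had 302 CPM against 206 to 214 in the other control wells. For EGLN1, control replicate 1 had 70.9 CPM against 76.2 to 76.6. SLC16A3 also stood out in control replicate 1, at 9.91 CPM against 13.0 to 13.5. For ANKRD37, stretch replicate 2 had 1.92 CPM against 2.50 to 2.58. HK1 also stood out in stretch replicate 2, at 136 CPM against 151 to 153. For ERO1A, stretch replicate 3 had 82.8 CPM against 84.3 to 84.6. SLC2A3 also stood out in stretch replicate 3, at 3.09 CPM against 3.26 to 3.29. VEGFA had no such well.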

How the results depend on the processing

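Without the block, no member passed under limma-voom, DESeq2, other size factors, either other filter on low counts, or omission of any single well. Over all genes the count was 0 in edgeR without the block (579 at an unadjusted p under 0.05), 40 in DESeq2, 11 with no filter on low counts and 0 to 12 without single wells (12 without control replicate 3). The replicate block gave 1 member and 102 genes, the block of 2 levels 1 and 58, replicates 1 and 2 alone 3 and 51, and replicates 3 and 4 alone 0 and 25. With the replicate block and 1 pair left out, the members called were 1 to 4 (4 without replicate 3). The genes called were 43, 67, 186 and 74 without replicates 1, 2, 3 and 4. VEGFA was higher in each of its 22 alternatives. Its value was 0.43 to 0.67 when single wells were left out (edgeR, adjusted p from 0.0699 to 1), which did not pass. VEGFA passed at 0.53 with the replicate block (adjusted p = 6.1e-04, edgeR) and with the block of 2 levels (adjusted p = 0.0305, edgeR). In replicates 1 and 2 alone it passed at 0.57 (adjusted p = 0.0178, edgeR). With the replicate block and without replicates 1, 2, 3 and 4 it passed at 0.55, 0.49, 0.58 and 0.51 (edgeR, adjusted p from 2.3e-05 to 0.0112). The excess of VEGFA over the median of 31 genes was 0.50 with a prior count of 0.5 or library size only. CA12 turned to 0.12 in replicates 1 and 2 alone, ran from -0.16 to 0.0369 (without control replicate 3) when single wells were left out and from -0.18 to 0.11 with the replicate block and 1 pair left out. SLC2A1 turned to -0.0317 in replicates 3 and 4 alone, and ran from -0.0155 (without control replicate 2) to 0.15 and from -0.0057 to 0.12 in the same omissions. The cause was not tested. CA9 had only 30 to 48 counts per well, but the widest 95% interval with the block was that of CA12, which had 5275 to 8917, so counts alone did not set the precision.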
